A study of Homo sapiens with 2 samples.

Results

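The neuronal miRNAs described here are those known for high levels in brain whose assays carry the names miR-9, miR-7, miR-124a, miR-128b, miR-137 and miR-219. They were picked by assay name, after the species prefix and the 7-digit assay number were dropped, and comprised 7 of the 365 miRNA assays. The names were chosen with earlier results of these data known. Of the 7 names in the selection 6 were found, miR-9 on 2 assay numbers (4373285 and 4378074), and miR-128a was not analysed here. The miRNAs were measured by quantitative reverse-transcription PCR in CL1-5, a highly invasive human lung adenocarcinoma line. The control, called vector cells here, was CL1-5 carrying the empty vector pcDNA3.1. It was compared with CL1-5 overexpressing ANGPTL1 (ANGPTL1 cells), which is a secreted protein of the angiopoietin-like family. Both lines had been selected with the antibiotic G418 as stable lines. The labels do not say whether either line is a single clone or a pool. There was 1 sample per group, so no value has a replicate error, no test was made, and each difference compares these 2 RNA samples. ANGPTL1 itself was not measured.

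A mature miRNA is a short RNA cut from a hairpin, and it represses mRNAs that pair with its seed, the bases from 2 to 8. Both arms of a hairpin can give a mature miRNA, usually in unequal amounts. In neurons and their progenitors miR-9 and miR-124 act together in neuronal differentiation and are repressed outside the nervous system by REST. miR-7 is abundant in neurons and endocrine cells, and in carcinoma lines it is described as a repressor of EGFR. miR-128 is a neuronal miRNA, miR-137 acts in neuronal maturation and miR-219 in the maturation of oligodendrocytes.

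Mature sequences were taken from RefSeq (GRCh38.p14) for 5 of the 6 names. They are shown because the seed sets which mRNAs a miRNA can pair with and because miR-9 is the member measured by a pair of assays. Capitals mark the seed. The present names of miR-7, miR-128b, miR-137 and miR-219 were assigned from general knowledge, not from the files.
miR-9-5p: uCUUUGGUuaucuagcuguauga
miR-9-3p: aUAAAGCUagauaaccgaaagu
miR-7-5p: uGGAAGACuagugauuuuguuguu
miR-128-3p: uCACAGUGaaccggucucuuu
miR-137-3p: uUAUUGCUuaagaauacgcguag
miR-219a-5p: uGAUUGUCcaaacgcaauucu
The 6 sequences have 6 different seeds, so the members form no seed family. Among the 2370 mature names of the table, no other name has the seed of either miR-9 arm, of miR-7-5p or of miR-137-3p. The seeds of miR-128-3p and miR-219a-5p are each found in 2 other names.

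The arms of miR-9 differ in seed, and each has the same sequence at 3 loci. miR-9-5p lies at chr1:156420392-156420414 on the minus strand (MIR9-1), at chr5:88666902-88666924 on the minus strand (MIR9-2) and at chr15:89368032-89368054 on the plus strand (MIR9-3). The loci fall within the spans of the long noncoding genes MIR9-1HG, MIR9-2HG and MIR9-3HG. The table places miR-7-5p at chr9:83969811-83969834 on the minus strand, within the span of HNRNPK, which encodes a widely expressed RNA-binding protein. Another entry of miR-7-5p, at chr19:4770700-4770723 on the plus strand, lies within the noncoding gene MIR7-3HG. These entries are named MIR7-1 and MIR7-3, and any locus of miR-7-5p that the reference lacks is not listed here. miR-137-3p has 1 locus, chr1:98046091-98046113 on the minus strand, within MIR137HG. miR-128-3p has the same sequence at loci within the spans of the protein-coding genes R3HDM1 and ARPP21. An assay of a mature miRNA reads all loci together, so a value below cannot be assigned to a locus.

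The line amplified miR-9 and miR-7 in both samples, miR-137 and miR-219 late, and no miR-124a or miR-128b. The measured value was the threshold cycle (Ct), at which the PCR signal crosses a set level. If each cycle doubles the template, crossing 1 cycle earlier means about 2 times as much of it. A Ct below 35 counted as detected, and a Ct of 40, the last cycle, as no amplification. By this rule 3 of 7 members (42.9%) were detected in vector cells and 4 of 7 (57.1%) in ANGPTL1 cells. Over all 365 assays the shares were 43.0% in vector cells and 43.3% in ANGPTL1 cells. With 7 members, 1 assay more or less shifts a share by more than either difference from the card. Both assays of miR-9 and the assay of miR-7 were detected in both samples, miR-137 in ANGPTL1 cells alone, and miR-219, miR-124a and miR-128b in neither.

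**Figure D1:**
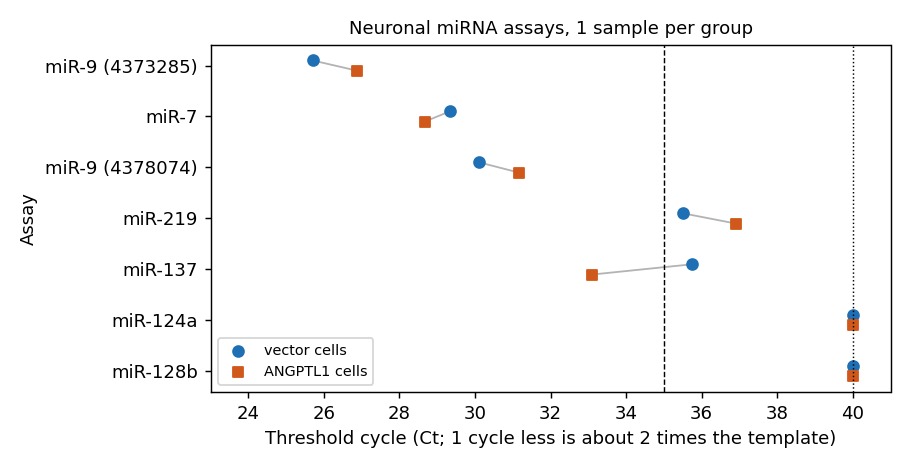
Threshold cycle of each of the 7 neuronal assays (x axis, in cycles, lower means more template) in vector cells (circles) and ANGPTL1 cells (squares), with 1 sample per group; the dashed line is the detection limit of 35 and the dotted line the last cycle, 40. Both miR-9 assays lie further right in ANGPTL1 cells, miR-7 and miR-137 lie further left, and miR-124a and miR-128b sit at 40 in both samples.

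miR-9, whose described targets include REST itself, had the earliest cycle of the members. Its earlier assay (4373285) crossed threshold at cycle 25.70 in vector cells and 26.87 in ANGPTL1 cells. It was the 28th earliest of the 365 assays in vector cells and the 39th in ANGPTL1 cells, so this neuronal miRNA crossed threshold before most other miRNAs of the carcinoma line. The small nucleolar RNA RNU48, the reference, stood at cycles 20.79 and 21.21. Delta Ct, the cycle of the assay minus that of RNU48 in the same sample, was 4.91 in vector cells and 5.66 in ANGPTL1 cells for this assay. On a linear scale that is 3.33% of the RNU48 level in vector cells and 1.98% in ANGPTL1 cells, if both assays amplify equally well. The later assay of miR-9 (4378074) crossed at cycle 30.11 in vector cells and 31.16 in ANGPTL1 cells. Its delta Ct was 9.32 and 9.95.

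Both miR-9 assays thus crossed threshold later in ANGPTL1 cells. The log2 ratio, delta Ct of vector cells minus that of ANGPTL1 cells, was -0.75 for assay 4373285 and -0.63 for assay 4378074. miR-9 was therefore 1.68-fold lower by the first assay and 1.55-fold lower by the second, and neither was past 2-fold. Of the 145 miRNAs detected in both samples, the share at least 2-fold lower was 4.83%, and the miR-9 assays were the 15th and 21st lowest. Of 28 other miRNAs within 1 cycle of the earlier assay in mean Ct, 27 had a higher ratio, and their median was -0.03. For the later assay, 25 of 32 such neighbours had a higher ratio. Without a reference, on the cycles alone, the miR-9 ratios were -1.17 and -1.05, so both were past 2-fold on the lower side. On that scale 20.0% of the 145 miRNAs were at least 2-fold lower.

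The distance between the miR-9 assays was nearly the same in both samples. The later assay followed the earlier one by 4.41 cycles in vector cells and by 4.29 cycles in ANGPTL1 cells. If the assays read opposite arms and amplify equally well, this is an arm ratio of 21.3 to 1 in vector cells and 19.6 to 1 in ANGPTL1 cells. The level of the ratio depends on the efficiency of each assay, which is not given in the sources used here. Its change between the samples does not depend on RNU48. Where the assays differ in efficiency, this change depends on that too, even if each assay behaves alike in both samples. That change was 0.12 cycles, or 1.09-fold. The file gives the same name for both assays, so the arm that each one reads is not settled, and the ratio is that of assay 4373285 over assay 4378074.

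For comparison, 14 names on the card stood on 2 assay numbers, and in 2 of these both assays were detected in both samples. The other was miR-126, an endothelial miRNA. Its assays lay 3.99 cycles apart in vector cells and 3.25 in ANGPTL1 cells, a change of 0.74 cycles in size against 0.12 for miR-9. The miR-126 assays had log2 ratios of opposite sign, -0.41 for assay 4378064 and 0.33 for assay 4373269, whereas those of miR-9 had the same sign. Without a reference both miR-126 ratios were below 0, at -0.83 and -0.09. With 1 sample per group, whether the difference between the names exceeds the error of the assays was not tested.

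**Figure D2:**
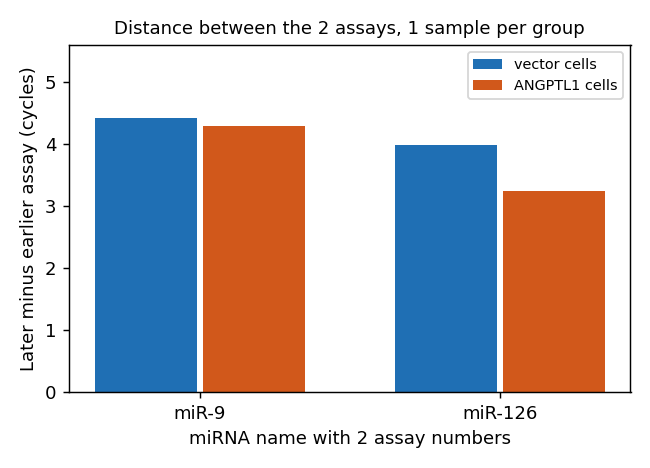
Cycles between the later and the earlier assay of the same name (y axis, in cycles) for miR-9 and miR-126 in vector cells and ANGPTL1 cells, 1 sample each and no error bars. The miR-9 bars stand at 4.41 and 4.29 cycles, and the miR-126 bars at 3.99 and 3.25.

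miR-7 went in the other direction. It crossed threshold at cycle 29.33 in vector cells and 28.67 in ANGPTL1 cells. Delta Ct was 8.54 and 7.46, or 0.269% and 0.568% of the RNU48 level. The log2 ratio was 1.08, a level 2.11-fold higher in ANGPTL1 cells, the 11th highest of 145. It was the only member detected in both samples past 2-fold, against 7.59% of the 145 miRNAs at least 2-fold higher. Of 30 other miRNAs within 1 cycle of miR-7 in mean Ct, 3 had a ratio as high or higher. Without a reference the ratio was 0.66 (1.58-fold), which is under 2-fold, and 4.14% of the 145 miRNAs were then at least 2-fold higher.

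**Figure D3:**
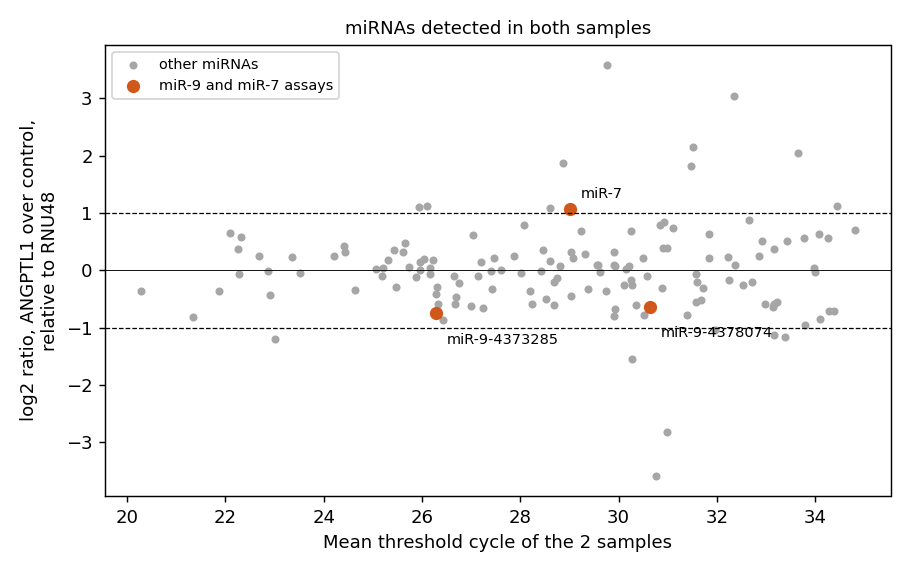
Log2 ratio of ANGPTL1 over control relative to RNU48 (y axis) against the mean threshold cycle of both samples (x axis, in cycles) for the 145 miRNAs detected in both; dashed lines mark 2-fold. miR-7 lies just above the upper line at 1.08, and the miR-9 assays lie between 0 and the lower line at -0.75 and -0.63.

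The difference between miR-7 and miR-9 can be read without RNU48. miR-7 followed the earlier miR-9 assay by 3.63 cycles in vector cells and by 1.80 cycles in ANGPTL1 cells. The ratio of miR-7 over miR-9 was thus 3.56-fold higher in ANGPTL1 cells by that assay. The later miR-9 assay crossed 0.78 cycles after miR-7 in vector cells and 2.49 cycles after it in ANGPTL1 cells, a change of 1.71 cycles in the same direction. For scale, assays of the same name moved against each other by 0.12 cycles for miR-9 and by 0.74 for miR-126, neither of which is a replicate error.

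miR-137 was close to the detection limit. It crossed threshold at cycle 35.74 in vector cells, past the limit, and at 33.11 in ANGPTL1 cells. With vector cells set to 35, miR-137 was at least 4.96-fold higher in ANGPTL1 cells relative to RNU48, and at least 3.71-fold higher without a reference. A bound above 0 on the cycles alone follows from its detection in ANGPTL1 cells alone, which held for 13 of the 365 assays (3.56%). The authors' deposited table gives 8.34-fold, which uses the cycle of 35.74 as measured. In delta Ct, miR-137 in ANGPTL1 cells (11.90) lay above miR-9 (5.66 for the earlier assay) and miR-7 (7.46), so it crossed threshold later than both.

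miR-219 was not detected in either sample. It crossed at cycle 35.51 in vector cells and 36.90 in ANGPTL1 cells, so the later cycle was in ANGPTL1 cells, the reverse of miR-137. The authors' deposited table gives a ratio of 0.511 for it, and at these cycles no difference is read here. miR-124a, which represses the splicing regulator PTBP1 in neurons, showed no amplification by cycle 40 in either sample, and neither did miR-128b. For such assays the authors' deposited table gives 1.34-fold, which is the difference of the RNU48 cycles (0.42) and not a measurement of the miRNA. Over the card 130 assays stood at 40 in both samples. At this depth miR-124a and miR-128b were not detectable, and a level below the limit cannot be told from none.

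The order of the members by cycle was the earlier miR-9 assay, miR-7 and the later miR-9 assay in both samples. In vector cells miR-219 and miR-137 followed, both past the limit. In ANGPTL1 cells miR-137 preceded miR-219. Cycles of different assays compare levels only if the assays amplify equally well.

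The miRNAs most like miR-9 and miR-7 in level were found by delta Ct. By Euclidean distance over the pair of delta Ct values, the 3 assays nearest to the earlier miR-9 assay were miR-186 (delta Ct 5.03 and 5.62), miR-565 (4.99 and 5.86) and miR-126 (assay 4378064, 5.08 and 5.49). The nearest to miR-7 were miR-361 (8.57 and 7.88), miR-425 (8.19 and 7.86) and miR-22 (8.14 and 7.05). The log2 ratios were -0.59 for miR-186, -0.87 for miR-565 and -0.41 for miR-126. They were 0.69 for miR-361, 0.33 for miR-425 and 1.09 for miR-22. The ratio is the difference of the same delta Ct values, so a ratio near that of the member follows largely from the choice. With 2 samples such likeness describes level and direction only.

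A wider list held 19 other miRNAs described as enriched in brain. Of these, 16 had an assay in the tables, and miR-138, miR-212 and miR-346 were not analysed here. Of the 16, 7 passed the limit in both samples, 1 did so only in ANGPTL1 cells and 8 did not in either. Over the card 145 of 365 assays did so in both samples, 13 (3.56%) only in ANGPTL1 cells and 195 (53.4%) in neither. The median log2 ratio of the 7 was 0.17, against -0.01 for all 145 miRNAs detected in both samples. Of the 7, 4 lay above 0, against 72 of the 145. Without a reference the medians were -0.25 and -0.43. On that scale 1 of the 7, miR-125b at 0.01, lay above 0, against 30 of the 145. Of the 7, 0 were at least 2-fold higher and 1 at least 2-fold lower, against 7.59% and 4.83% of the 145.

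The earliest of the wider list by cycle were miR-125b, a regulator of differentiation that many tissues express, and miR-125a of the same seed family. miR-125b stood at cycle 24.41 in vector cells and 24.40 in ANGPTL1 cells, with a log2 ratio of 0.43. miR-125a stood at 25.56 and 25.66, with 0.32. miR-132, which neurons induce through CREB, stood at 25.60 and 26.14, with -0.12. These 3 crossed threshold before the earlier miR-9 assay in both samples. miR-149 followed at 28.47 and 28.72, with a log2 ratio of 0.17.

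The other detected miRNAs of the wider list crossed threshold later than miR-149. miR-139 stood at cycle 32.39 in vector cells and 33.94 in ANGPTL1 cells and was 2.19-fold lower. miR-330 had a log2 ratio of -0.96, at cycles 33.10 and 34.48, and miR-326 one of 0.38, at 33.15 and 33.19. miR-218, a miRNA of motor neurons, was detected in ANGPTL1 cells alone, at cycle 34.85 against 37.32. It was at least 1.48-fold higher there relative to RNU48 and at least 1.11-fold higher without a reference. As for miR-137, a bound above 0 on the cycles alone follows from detection in ANGPTL1 cells alone. The bound relative to RNU48 also contains the 0.42 cycles between the RNU48 values. miR-129, miR-135a, miR-153, miR-338 and miR-488 stood at cycle 40 in both samples, as miR-124a did. The other undetected members were miR-135b (cycles 35.75 and 40), miR-323 (39.77 and 37.13) and miR-383 (38.11 and 40).

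**Figure D4:**
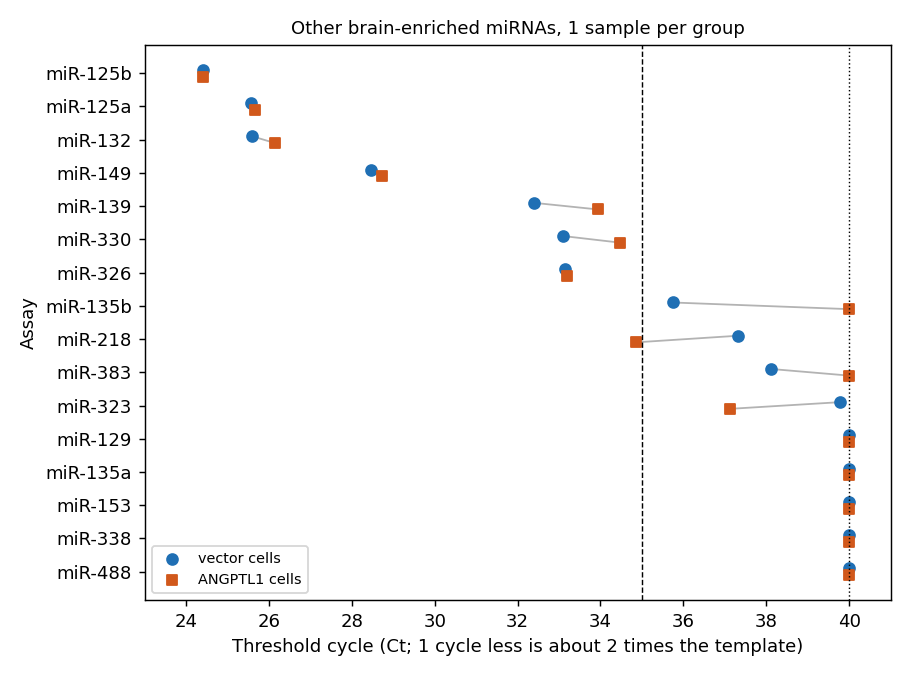
Threshold cycle (x axis, in cycles) of the 16 other brain-enriched miRNAs in vector cells (circles) and ANGPTL1 cells (squares), 1 sample per group; the dashed line is the limit of 35 and the dotted line cycle 40. miR-125b, miR-125a, miR-132 and miR-149 lie well left of the limit in both samples, and 5 miRNAs sit at 40 in both.

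Markers of other cell types were set beside the members. Of epithelial miRNAs, 2 of 8 assays were detected in each sample, miR-200c (cycles 32.16 and 30.77) and miR-203 (30.53 and 31.25), and 4 stood at 40 in both. The remaining pair, miR-141 (40 and 35.40) and an assay of miR-200a (number 4378069, 40 and 38.71), crossed past the limit in ANGPTL1 cells. Both miR-9 assays crossed threshold before miR-200c and miR-203 in vector cells. In ANGPTL1 cells the earlier assay again did so, whereas the later one (31.16) crossed after miR-200c and just before miR-203. Of 4 assays of blood cell miRNAs, 1 was detected in vector cells, at cycle 34.51, and 0 in ANGPTL1 cells. A further blood cell name, miR-144, was not analysed here. Of 4 muscle miRNAs, 1 was detected in each sample. Over all 365 assays the shares detected were 43.0% in vector cells and 43.3% in ANGPTL1 cells, above the share of each of these marker lists. The part of other cells in the neuronal values was not tested.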

How the data were processed

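Mature miRNAs were measured in 2 samples, 1 per group, by TaqMan PCR on a microRNA array card, with 500 ng of total RNA and 40 cycles, per the labels' protocols. The authors deposited 3 tables. The first holds the average threshold cycle, a score for which lower means more template, per the file headers. The second holds delta Ct relative to RNU48, another such score on a log2 scale, per the file headers, equal to the difference of the deposited cycles within 0.01. The third holds a fold change from the authors, deposited as the ratio of ANGPTL1 cells over vector cells. How many wells were averaged, and with which software, is not given in the sources used here. A further 2 columns of linear values in the second file repeat delta Ct and were not used.

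Log2 ratios are delta Ct of vector cells minus that of ANGPTL1 cells, computed with Python 3.11.15 and pandas 2.3.3, and the calculation was tested on simulated data. Ratios were counted for miRNAs below cycle 35 in both samples. For a miRNA below 35 in 1 sample, the later cycle was set to 35. Late cycles rest on few template molecules, and no replicate shows their precision. Named were all members, miRNAs of the wider brain list detected in at least 1 sample, names with 2 assay numbers detected in both samples, and the 3 nearest assays; the epithelial miRNAs and the undetected members of the wider list were named after their values were seen. The members and lists were chosen with earlier results of these data known.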

Additional observations from a re-analysis of the deposited data

How the results depend on the processing

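With the authors' fold change table in place of delta Ct, and with the global median as reference (log2 ratios of 1.09 for miR-7 and of -0.74 and -0.62 for miR-9), the counts past 2-fold were the same in the members and the wider brain list, which by construction tests little. Without normalization, where each ratio is lower by 0.42, miR-7 was at 0.66 and miR-9 at -1.17 and -1.05. Of the members, 0 assays were then past 2-fold on the higher side and 2 on the lower. Of the wider list, 0 were past it on the higher side and 2 on the lower. Over all 145 miRNAs the shares were 4.14% higher and 20.0% lower. No direction of a member detected in both samples turned. The bound of miR-137 was 2.31 on the log2 scale, 1.89 without normalization and 3.06 with the deposited cycles up to 40. Detection below cycle 38 gave 5 members detected in vector cells and 5 in ANGPTL1 cells, against 193 and 197 of 365 over the card. Then 2 members were higher (miR-137 joined miR-7) and 0 lower. Of the wider list, 1 was higher and 1 lower. Over the card 13.1% of 176 were higher and 6.25% lower. Below cycle 32, 3 members were detected in each sample, against 117 of 365 assays in vector cells and 111 in ANGPTL1 cells. At that limit 1 member was higher and 0 were lower, and 0 of the wider list were higher or lower. Of 107 miRNAs, 5.61% were then higher and 1.87% lower. At 1.5-fold, 2 members and 2 of the wider list were lower, against 19.3% of all 145 miRNAs. On the higher side were 1 member and 0 of the wider list, against 16.6%. At 4-fold, 0 members and 0 of the wider list were higher or lower, against 2.76% higher and 1.38% lower of the 145. The miR-9 distance was the same from delta Ct. No paired analysis was possible because there is a single sample in each group, and no replicate could be left out.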
